A study of Drosophila melanogaster with 2 samples.

Results

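Chromosome 4 is the smallest chromosome of Drosophila melanogaster, and it held 295 of the 30000 regions in the pooled list from a study of the zinc finger protein Jim. The pooled list is labelled as peaks and background, so a region in it need not be a site bound by Jim. The regions were chosen by position alone, as all pooled regions on chromosome 4 of the dm6 assembly, and the 236 regions of replicate 1 and the 379 regions of replicate 3 on that chromosome served for support. They come from chromatin immunoprecipitation and sequencing (ChIP-seq) of whole larvae of mixed sex at the wandering stage of the third instar. The larvae belonged to the strain jim-GFP, which stably expresses Jim with GFP fused at its C terminus, and an anti-GFP antibody was used. The study has 1 group of 2 biological replicates, numbered 1 and 3 in the labels. The labels name neither the promoter that drives the fusion nor the tissues that express it, and a whole larva mixes all of its tissues. The lists were made with a control, per the deposited text notes, but no values of an untagged or control sample were used here. The library of replicate 1 had a labelled size range of 175 to 275 bp, and that of replicate 3 one of 200 to 325 bp.

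Chromosome 4 is unusual among fly chromosomes. Its gene-bearing arm carries active genes within chromatin that has many features of heterochromatin: it is rich in transposon remnants, is bound by Heterochromatin Protein 1a, and its genes are covered by the protein POF. It carries several well known regulators, among them ci, the effector of Hedgehog signalling, the eye selector genes ey and toy, pan and lgs of the Wingless pathway, and pho, which recruits Polycomb complexes. Jim is a C2H2 zinc finger protein, and no binding motif of it was assumed here.

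A region's signal is the signal value given by the authors' peak caller, on a scale of its own in each list. Strength is therefore compared here by rank within a list, with rank 1 the strongest. The lists ended at different signals, 10.9 for replicate 1, 12.4 for replicate 3 and 20.6 for the pooled list. The authors also deposited a shorter list of 1476 reproducible regions, selected by the irreproducible discovery rate (IDR), which are the strongest of the pooled list. A summit within 500 bp of an annotated transcription start site is called promoter-proximal, and the bounds beside a share are those of its exact 95% binomial interval (Clopper-Pearson), which covers counting error only. With 1 group there is no contrast between conditions, and no test was made: differences from the other arms are given as descriptions.

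The 6 strongest regions that touch no untranslated region and lie in introns, at promoters or between genes are given here on the plus strand of dm6, 5′ to 3′. Capitals mark matches, on either strand and anywhere in a region, to the 5 motifs counted further on. Those counts take only the bases within 50 bp of a summit. All 6 were 260 bp long. Their nearest start sites were those of developmental regulators: zfh2 (a zinc finger homeodomain factor), pho, toy and ey.
zfh2, upstream, chr4:497765-498024: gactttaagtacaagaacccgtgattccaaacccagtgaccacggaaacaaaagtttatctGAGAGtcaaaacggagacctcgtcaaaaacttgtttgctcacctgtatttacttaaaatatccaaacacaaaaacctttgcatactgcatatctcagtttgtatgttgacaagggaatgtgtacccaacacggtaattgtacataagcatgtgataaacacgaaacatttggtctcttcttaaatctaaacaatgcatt
zfh2, intron, chr4:528159-528418: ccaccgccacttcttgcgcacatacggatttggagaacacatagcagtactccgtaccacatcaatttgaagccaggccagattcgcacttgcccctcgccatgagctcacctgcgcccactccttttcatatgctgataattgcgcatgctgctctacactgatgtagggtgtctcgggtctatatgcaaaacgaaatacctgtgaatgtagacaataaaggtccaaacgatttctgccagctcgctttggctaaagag
zfh2, intron, chr4:508455-508714: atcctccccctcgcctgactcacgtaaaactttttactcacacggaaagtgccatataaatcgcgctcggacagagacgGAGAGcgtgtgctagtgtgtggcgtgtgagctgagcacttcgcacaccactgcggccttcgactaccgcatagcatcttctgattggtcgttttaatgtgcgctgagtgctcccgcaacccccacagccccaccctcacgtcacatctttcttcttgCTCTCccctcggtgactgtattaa
pho, intron, chr4:1177695-1177954: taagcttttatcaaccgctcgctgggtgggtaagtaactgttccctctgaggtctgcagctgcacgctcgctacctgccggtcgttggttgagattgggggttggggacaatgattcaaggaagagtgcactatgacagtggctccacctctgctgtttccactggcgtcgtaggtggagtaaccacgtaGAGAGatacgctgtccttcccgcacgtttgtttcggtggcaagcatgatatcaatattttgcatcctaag
toy, intron, chr4:1005391-1005650: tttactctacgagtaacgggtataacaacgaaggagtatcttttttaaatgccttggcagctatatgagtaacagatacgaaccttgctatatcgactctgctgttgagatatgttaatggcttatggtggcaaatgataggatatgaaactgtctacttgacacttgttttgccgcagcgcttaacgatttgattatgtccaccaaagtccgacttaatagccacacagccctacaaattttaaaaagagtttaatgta
ey, upstream, chr4:696820-697079: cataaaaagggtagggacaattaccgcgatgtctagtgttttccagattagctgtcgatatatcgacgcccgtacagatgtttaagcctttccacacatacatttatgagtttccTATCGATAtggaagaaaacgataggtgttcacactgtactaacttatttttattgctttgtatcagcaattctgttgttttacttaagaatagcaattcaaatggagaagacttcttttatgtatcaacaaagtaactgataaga
The capitals are GAGAG or its complement in the zfh2 upstream, the second zfh2 intron and the pho sequences, and the DNA replication-related element in the ey sequence. The GAGAG matches do not lie wholly within 50 bp of a summit and are not among those counted further on. The element in the ey sequence is counted there. The pho region lay wholly inside annotated remnants of the transposons Cr1a and jockey2, and the toy region overlapped an INE-1 remnant by 25 bp.

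No chromosome 4 region reached the IDR list. The list takes in 4.92% of all pooled regions, and it took in 0 of 295 on chromosome 4, with an exact upper bound of 1.24% (3 counts of 295 would be 1.02%). The strongest chromosome 4 region stood at rank 1509, which is 33 ranks below the last IDR region, with a signal of 64.6 where the weakest IDR region had 65.3. In the first 3000 ranks lay 10 chromosome 4 regions (3.39%, 1.64% to 6.15%), against 10.1% of the regions of the other arms. On the dm3 assembly the pooled list held 294 chromosome 4 regions, the best at rank 1506, and again 0 were in the IDR list.

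In the pooled list, the median and the weakest 25% of chromosome 4 regions stood close to those of the other arms. The median rank lay at 50.6% of the list, and 73 regions (24.7%, 19.9% to 30.1%) fell in the weakest 25%. In the strongest 25% lay 49 (16.6%, 12.5% to 21.4%), against 25.1% of the regions of the other arms. Up to rank 10000 lay 25.1% (20.2% to 30.4%), against 33.4%. The median signal was 26.2 on chromosome 4 and 26.4 on the other arms, while the upper quartiles were 30.1 and 33.2. In the replicate lists the chromosome 4 median lay lower, at 55.74% in replicate 1 and 55.15% in replicate 3, against 49.95% on the other arms in each. The weakest 25% of these lists held 29.7% (23.9% to 35.9%) and 25.9% (21.5% to 30.6%) of chromosome 4 regions.

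**Figure D1:**
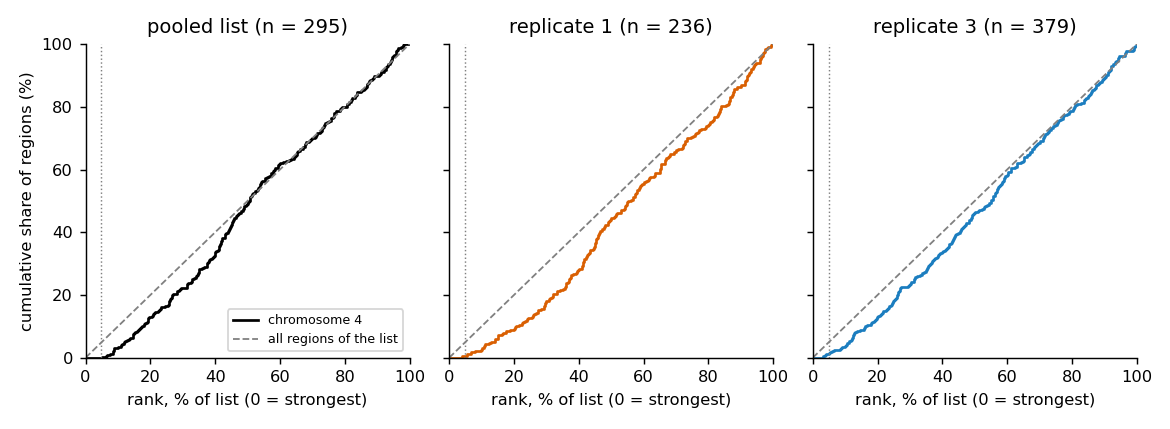
Cumulative share of chromosome 4 regions (y, %) against rank within the list (x, % of the list, 0 = strongest), for the pooled list (295 regions), replicate 1 (236) and replicate 3 (379); the dashed diagonal is all regions of a list and the dotted line marks the last IDR rank. At 25% of the list the curves stand at 16.6%, 12.7% and 18.2%, below the diagonal, and the pooled curve is near it at the median, 50.6%.

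Each replicate alone placed a few chromosome 4 regions among its 1476 strongest, again 4.92% of each list, and they were not the same ones. Replicate 1 had 1 of 236 (0.424%), in the 3 prime UTR of Cals, the calsyntenin gene. Replicate 3 had 5 of 379 (1.32%, 0.430% to 3.05%), at Gyf, which encodes a GYF domain protein, upstream of zfh2, at ci, at Rad23, a shuttle factor for ubiquitinated proteins, and at CG11076. The Cals region ranked 1162 in replicate 1 and 3679 in replicate 3. The 5 regions of replicate 3 ranked from 931 to 1436 there, and at the matching pooled summits replicate 1 had no region at Gyf or upstream of zfh2, and ranks of 3258 at ci, 28356 at Rad23 and 27871 at CG11076. Regions with a pooled summit in the 1476 strongest of both replicates numbered 0 of 295 on chromosome 4 (up to 1.24%) and 751 of 29705 on the other arms (2.53%).

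**Figure D2:**
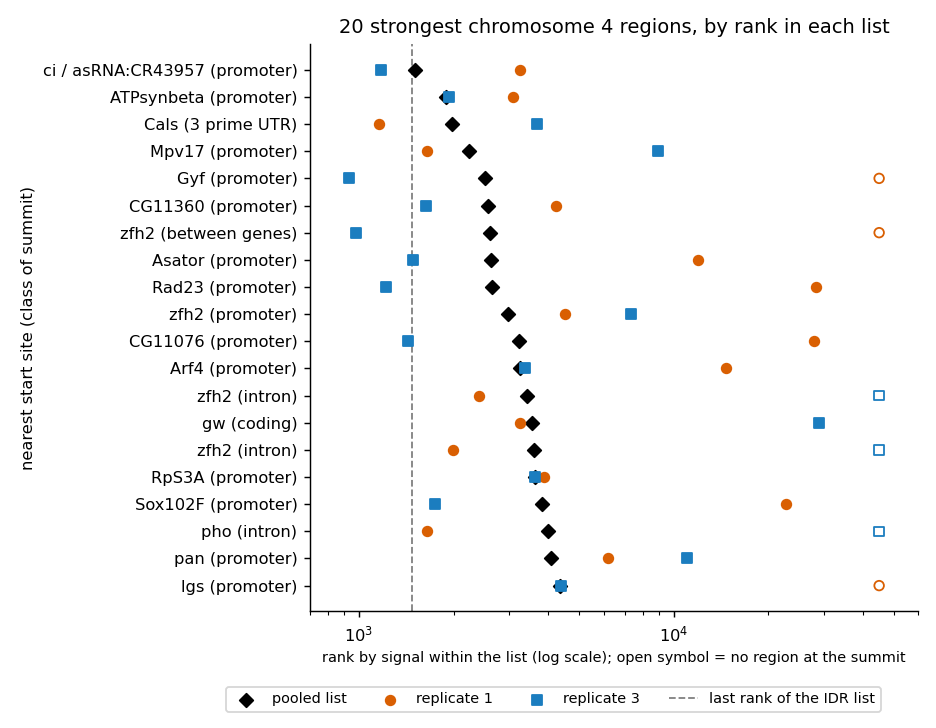
Rank (x, log scale) of the 20 strongest chromosome 4 regions in the pooled list (diamonds), replicate 1 (circles) and replicate 3 (squares), labelled by the nearest start site; open symbols mark no region at the summit, and the dashed line is the last IDR rank. All pooled ranks lie right of the line, from 1509, and the 2 replicates often stand far apart, as at Rad23 (28356 and 1221).

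Of the 20 strongest regions, 14 were promoter-proximal, 14 had a region of both replicates at the summit, and 1 overlapped a transposon remnant. With any overlap of 1 bp in place of the summit, 16 of the 20 had both replicates. The strongest lay inside ci (FBgn0004859, 56317 to 56576), 116 bp from a ci start site and 50 bp from that of the antisense RNA asRNA:CR43957 (FBgn0264617). Replicate 1 gave it a signal of 24.6 (rank 3258), replicate 3 one of 38.4 (rank 1174), and the pooled list 64.6. Both replicates held it, and the peak cannot be assigned to either of the overlapping transcripts. A second ci promoter region (56845 to 57104, signal 30.7, rank 9396) had a region of replicate 3 alone at its summit.

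Within 2736 bp, 3 of the 12 strongest regions stood at a run of promoters, those of Mpv17, CG11076 and ATPsynbeta. ATPsynbeta, the catalytic beta subunit of mitochondrial ATP synthase (FBgn0010217, 1031731 to 1031990), had a summit 3 bp from its start site, with a pooled signal of 58.1 (rank 1895), 25.2 in replicate 1 and 31.0 in replicate 3. At Mpv17 (FBgn0039930, 1029255 to 1029514), which encodes an inner mitochondrial membrane protein, the signal was 53.8 (rank 2246), with 33.1 in replicate 1 and 18.6 in replicate 3. At CG11076 (FBgn0039929, 1030847 to 1031106) it was 45.7 (rank 3227), with 11.3 in replicate 1 and 35.2 in replicate 3. The ATPsynbeta region ranked high in both replicates, Mpv17 higher in replicate 1 (1648 against 8950) and CG11076 higher in replicate 3 (1436 against 27871). The summit of the ATPsynbeta region also lay within 500 bp of a start site of CG11076.

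The Cals region (FBgn0039928, 1113295 to 1113554) was the only 1 of the 12 strongest outside promoters and intergenic sequence. It lay in the 3 prime UTR, 9540 bp from the nearest start site, with a pooled signal of 56.9, 38.0 in replicate 1 and 24.4 in replicate 3. Further promoter regions among the 12 were at Gyf (FBgn0039936, 866859 to 867118, signal 50.9), CG11360 (FBgn0039920, 670947 to 671206, signal 50.3), Asator, a kinase related to tau tubulin kinases (FBgn0039908, 485888 to 486147, signal 49.9), Rad23 (FBgn0026777, 308033 to 308292, signal 49.7), zfh2 (FBgn0004607, 501730 to 501989, signal 47.3) and Arf4, a small GTPase of membrane traffic (FBgn0013749, 1123952 to 1124211, signal 45.6). These 6 summits lay 15 to 85 bp from a start site. All 12 had a region of replicate 3 at the summit and 10 had one of replicate 1.

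Over all 295 regions, 72 (24.4%, 19.6% to 29.7%) had a region of both replicates at the summit, against 25.8% of the whole pooled list. A region of replicate 3 alone stood at 120 (40.7%), of replicate 1 alone at 52 (17.6%, 13.5% to 22.5%), and 51 (17.3%) had neither. On the other arms these shares were 32.9% for replicate 3 alone, 24.1% for replicate 1 alone and 17.2% for neither. Support by both replicates fell with rank, from 19 of 27 regions in the first 5000 ranks (70.4%) to 27 of 221 beyond rank 10000 (12.2%), and on the other arms likewise from 79.1% to 8.51%. Across the 72 shared regions the signals of the replicates had a Spearman correlation of 0.18, and across 7680 shared regions of the other arms 0.54. These points share their 2 libraries and are no replicates of each other, and the chromosome 4 set lacks the strongest ranks.

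The replicates placed different numbers of regions on chromosome 4. Replicate 3 had 281 regions per Mb of its 1348131 bp and replicate 1 had 175, with 219 in the pooled list. Covered length was 98540 bp (7.31%), 49560 bp (3.68%) and 76617 bp (5.68%), and regions were 260 bp wide in replicate 3 and the pooled list and 210 bp in replicate 1. On 2L, 2R, 3L and 3R the replicates lay closer together, at 227 to 234 per Mb in replicate 1 and 229 to 253 in replicate 3, while X leaned the other way, with 192 and 139. Base composition differed along with the chromosome 4 split. Chromosome 4 has a GC content of 34.8%, against 42.2% for the other arms, and the median GC within 50 bp of summits on the other arms was 45.5% in the list of replicate 1 and 41.6% in that of replicate 3. On chromosome 4 itself it was 40.6% and 35.6%. X has a GC content of 42.3%, and 2R and 3R have 42.6%. The library size ranges also differed between the replicates. The part of either in these differences was not tested.

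**Figure D3:**
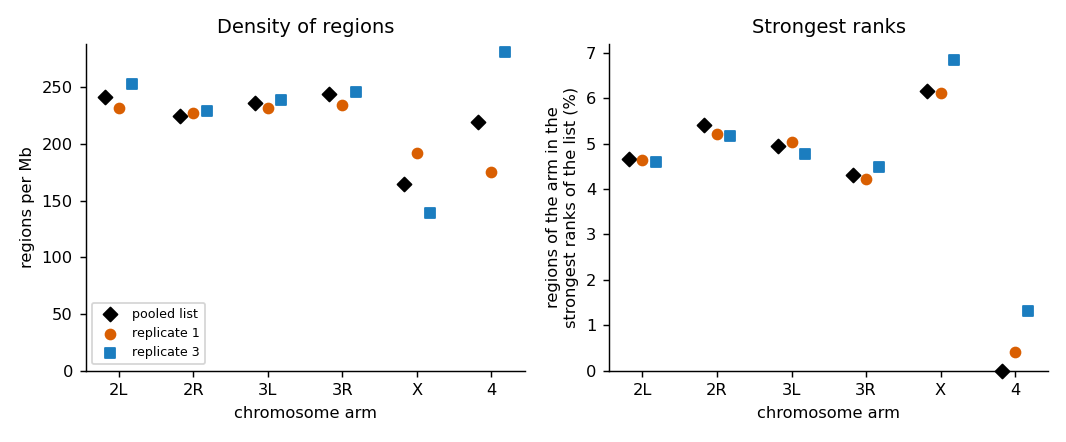
Regions per Mb (left) and share of an arm's regions within the 1476 strongest ranks of the list (right, %), by chromosome arm, for the pooled list, replicate 1 and replicate 3. On chromosome 4 the density was 175 in replicate 1 and 281 in replicate 3, and its share in the strongest ranks was 0 in the pooled list, 0.424% and 1.32%, with every other arm above 4%.

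The count of 0 was set beside base composition and class. Among other-arm regions with a summit GC under 35%, 2.78% were in the IDR list, from 35% to under 45% it was 4.38%, and from 45% it was 6.51%. On chromosome 4 the counts were 0 of 101, 0 of 153 and 0 of 41, with upper bounds of 3.59%, 2.38% and 8.60%, so only the middle band had an upper bound below the share of the other arms. These bands were chosen after the values were seen. Promoter regions gave 0 of 69 on chromosome 4 (up to 5.21%) against 11.3% on the other arms, and intron regions 0 of 101 (up to 3.59%) against 3.73% (3.41% to 4.08%).

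The promoter share was close to that of the whole list. Of the 295, 69 (23.4%, 18.7% to 28.6%) were within 500 bp of a start site, against 24.9% of all pooled regions, while 10.7% of chromosome 4 positions lie that close. Promoter regions were the stronger ones, with a median rank at 36.7% of the list and a median signal of 29.2, against 63.0% and 24.4 in introns. On the other arms promoter regions stood at 30.7% and intron regions at 52.0%. Both replicates held 30 of the 69 promoter regions (43.5%), against 40.5% of those of the other arms, and 14 of the 101 intron regions (13.9%, 7.79% to 22.2%), against 23.7%.

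Coding sequence held a larger share of summits than on the other arms. It took 63 (21.4%, 16.8% to 26.5%), where 7.41% (7.12% to 7.72%) of the regions of the other arms lay in coding sequence. Coding sequence outside promoters makes up 18.0% of chromosome 4 and 13% of the other arms, so the pooled share was near the length share on chromosome 4 and below it on the other arms. Replicate 3 gave the same order, with 18.7% on chromosome 4 and 6.34% on the other arms. Replicate 1 did not: its share on chromosome 4, 27.5% (21.9% to 33.7%), was above the length share, and that on the other arms, 12.6%, was near it. In both replicate lists the share was higher on chromosome 4 than on the other arms. Introns held 101 regions (34.2%), sequence between genes 40 (13.6%), 3 prime UTRs 16 (5.42%), 5 prime UTRs 4 (1.36%) and noncoding exons 2 (0.678%). The median GC at coding summits was 40.6%, against 37.6% at intronic ones.

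**Figure D4:**
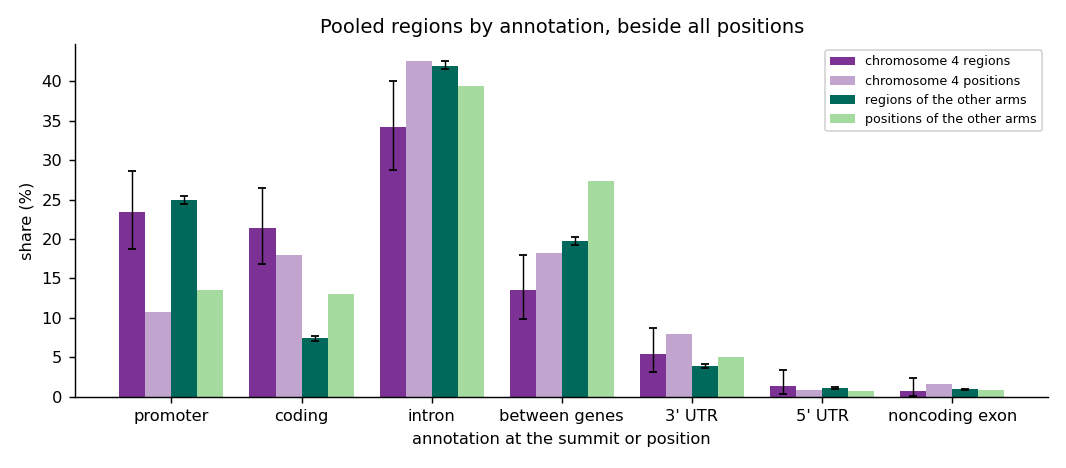
Share (y, %) of pooled regions by annotation at the summit on chromosome 4 (295 regions) and the other arms (29705 regions), with exact 95% intervals, beside the share of all positions on each. Coding sequence holds 21.4% of chromosome 4 regions and 7.41% of the others, while the promoter shares, 23.4% and 24.9%, overlap within their intervals.

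Transposon remnants held a larger share of summits than on the other arms and a smaller one than their length gives. Annotated transposable elements cover 24.8% of chromosome 4, and 36 summits (12.2%, 8.70% to 16.5%) lay in them; on the other arms they cover 5.74% and held 0.582% of summits. Any overlap was seen at 55 regions (18.6%, 14.4% to 23.6%), against 1.14% on the other arms. Of the 55, 32 touched INE-1, the short and most numerous element of this chromosome with 344 annotated copies, 7 touched 1360 and 5 touched Cr1a. These 55 ranked at a median of 63.0% of the list, against 48.6% for the 240 others, and both replicates held 7 of them (12.7%) against 65 of 240 (27.1%). The regions of the other arms showed the same order, with median ranks of 62.8% and 49.9% and shares in both replicates of 17.6% and 25.9%. No source used here says how reads with several placements were treated, and the effect on counts in repeats was not tested. Regions were spread over the arm, from the first summit at 44835 to the last at 1306377. Along it, 100 kb windows held 12 to 36 regions, the most between 400001 and 500000, and the last 48131 bp, which are 95.4% transposon, held 1.

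The genes with most summits were long regulatory and structural genes. zfh2, a homeodomain zinc finger gene active in the wing hinge and nervous system (501810 to 540874, 39.1 kb), held 13 pooled summits in its body and 2 kb upstream, 9 of them intronic. Only the promoter summit lay in a region of both replicates. Replicate 1 had a region at 7 of the 13 summits and replicate 3 at 3. Both intronic regions printed at the start, ranked 2410 and 1997 in replicate 1, had no replicate 3 region at the summit. The upstream region, 3915 bp from the zfh2 start site, was the reverse, at rank 981 in replicate 3 and with no replicate 1 region at the summit. By the summit rule, the strong intronic and upstream regions of zfh2 were thus each held by 1 replicate. A replicate region that overlaps beside the summit does not count under this rule.

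bt, which encodes the giant muscle protein of the titin and projectin family (FBgn0005666, 724400 to 776474, 52.1 kb), held 12 summits, 6 in coding sequence and 6 in introns, with 0 at a start site. Its best rank was 6904 (signal 34.1), and 4 of the 12 were in both replicates. Asator, Cadps and Sox102F held 10 each. Cadps, a regulator of dense-core vesicle release (FBgn0053653, 1230837 to 1271759), had 6 of its 10 in or touching transposon remnants and a best rank of 7727. Sox102F, a Sox family factor (FBgn0039938, 800436 to 834393), had 9 in introns, and its promoter region (signal 42.8) ranked 1745 in replicate 3 and 22791 in replicate 1. pan, the TCF factor of Wingless signalling (FBgn0085432, 69326 to 114270), held 9, of which 4 were in both replicates. The 6 genes are 19.6 to 52.1 kb long. Per kb of body and upstream sequence they held 0.192 (pan) to 0.463 (Asator) summits, with 0.317 at zfh2, beside a median of 0.261 over the 80 genes. By this density the short gene yellow-h came first with 5 summits, 1.11 per kb, a gene chosen after the values were seen. It had 0 summits at its own start site, and its upstream 2 kb runs into CG31999. Its best-ranked summit (rank 11714) lay in CG31999, 250 bp from a start site of that gene. Another of its summits lay 371 bp from a start site of CG1674.

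By genes, 52 of 80 protein-coding genes of chromosome 4 (65.0%, 53.5% to 75.3%) had a pooled summit within 500 bp of a start site, against 42.8% of all 13945 protein-coding genes. Regions of both replicates stood at 27 of the 80. This count was not made for genes of the other arms, so it and the like counts for the gene lists below lack that background. Replicate 3 alone gave 73.8% and replicate 1 alone 50.0%. The mean number of start sites per gene was 1.77 here and 1.40 on the other arms, with a median of 1 on both, and the median gene length was 10.1 kb and 2.16 kb. The part of these in the difference was not tested.

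Among 14 developmental transcription factor genes, 9 (64.3%) had a region at a start site, 6 of them with both replicates. Behind ci and zfh2 came Sox102F, pan (signal 41.6, rank 4074), lgs, the BCL9 adaptor of Wingless signalling (signal 40.5, rank 4354), and Mitf, a regulator of lysosomal genes (signal 40.4, rank 4371). At the lgs summit only replicate 3 had a region (rank 4390), while a replicate 1 region of rank 26997 overlapped the pooled region beside its summit. toy, the upstream partner of ey in eye formation, had a promoter region at rank 5815, and onecut and pho stood at 12530 and 14652. The 5 without one, ey, sv, fd102C, NfI and dati, all had summits in the gene body or 2 kb upstream. The best of these lay 739 bp from a start site of ey, the Pax6 gene, with a pooled signal of 40.1, and it is the last of the 6 sequences. The signal of this region was 17.7 in replicate 1 and 26.1 in replicate 3. It lies between genes and within 2 kb upstream of myo as well, so it cannot be assigned to ey alone.

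Of 13 genes for ligands, receptors and kinases, 8 (61.5%) had a promoter region, 5 with both replicates. Asator was first, followed by the adaptor gene Crk (signal 39.0, rank 4774), with a region of replicate 3 alone at the summit, and Zyx, a focal adhesion protein of the Hippo pathway (signal 38.5, rank 4936). Dyrk3, a protein kinase (rank 7727), Actbeta, an activin ligand (rank 9350), and PlexA, a semaphorin receptor (rank 11019), were next. CaMKII, the calcium-dependent kinase, and the TGF-beta ligand gene mav followed at 16199 and 21319. Ephrin, Eph, PlexB, myo and PIP4K had none.

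Of 11 housekeeping genes, 8 (72.7%) had a promoter region, 4 with both replicates. RpS3A, a protein of the small ribosomal subunit (67059 to 67318), had almost equal ranks, with a pooled signal of 43.6 (rank 3622), 22.9 in replicate 1 (rank 3862) and 24.5 in replicate 3 (rank 3627). gw, a scaffold of microRNA silencing, had a region at rank 4824, and ND-49 of respiratory complex I had one at 5823. Arl4, Hcf and eIF4G1 stood at 8052, 12021 and 18281. Of 10 synapse and muscle genes 6 (60.0%) had a promoter region, with 2 in both replicates: apolpp, which encodes the lipophorin apolipoproteins (rank 4936), and Cadps. The others, Ekar, Gat, Slip1 and Syt7, ranked between 17983 and 27346. The product of apolpp does not match the name of this list. The list holds the gene as planned, with earlier results of these data known. The region counted for apolpp at rank 4936 is the same region that was counted for Zyx, since their start sites are neighbours, and Cadps and Dyrk3 likewise share the region at rank 7727. None of the lists held a gene with an IDR region, and their shares lie close to the 65.0% of all 80 genes.

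**Figure D5:**
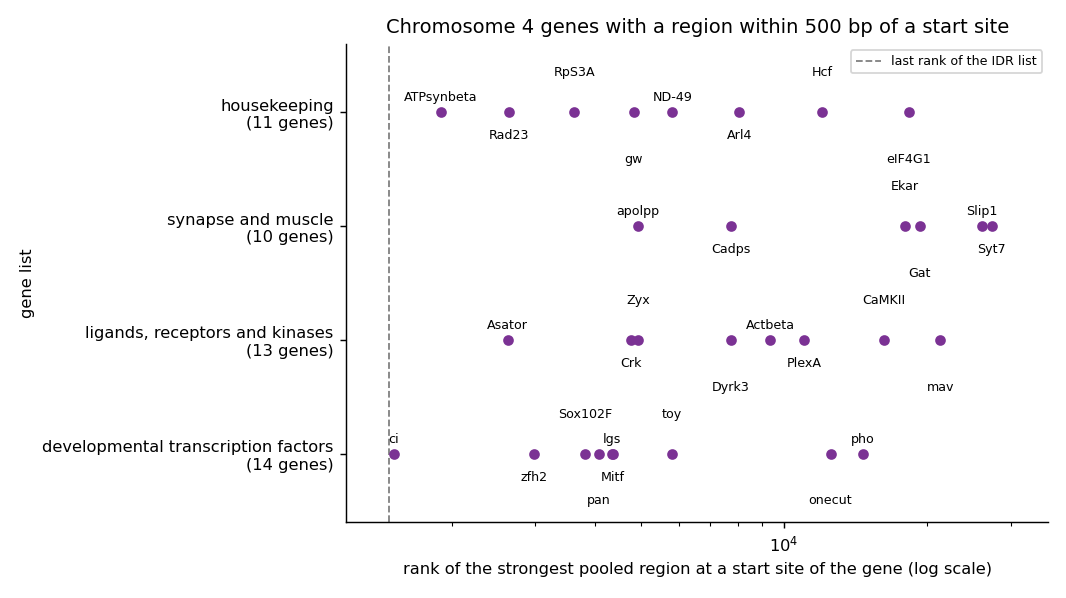
Rank of the strongest pooled region within 500 bp of a start site (x, log scale) for the genes of 4 lists that have one, with the dashed line at the last IDR rank. The points run from ci at 1509 to Syt7 at 27346, and none lies left of the line.

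The 5 motifs were counted within 50 bp of summits, on both strands, and 1 of them, the DNA replication-related element, had a larger share on chromosome 4 than on the other arms in the pooled list and in replicate 3. This element, TATCGATA, is the palindrome recognised by the factors DREF and BEAF-32 at housekeeping promoters. It lay at 11 of 295 summits (3.73%, 1.88% to 6.57%), against 0.771% (0.675% to 0.877%) on the other arms and 0.926% of all chromosome 4 windows of the same length. The element was at 5 of 69 promoter summits (7.25%, 2.39% to 16.1%; other arms 2.47%), and at 3 of 101 intronic ones (2.97%; other arms 0.208%). The larger share was seen in replicate 3, with 10 of 379 (2.64%, 1.27% to 4.80%) against 0.682% on the other arms. It was not seen in replicate 1, with 1 of 236 (0.424%, up to 2.34%) against 0.843%. Of the 11 pooled regions, 10 had a region of replicate 3 at the summit and 2 had one of replicate 1. The sites are shown with 10 bases to each side on the plus strand of dm6, with the element in capitals and the nearest start site as the name.
ey, chr4:696925-696952: atgagtttccTATCGATAtggaagaaaa
Crk, chr4:210240-210267: gatcaaacatTATCGATAgtgtttctat
MED26, chr4:787636-787663: taacaattatTATCGATAtactttcacg
Hcf, chr4:359917-359944: gcaatctatgTATCGATAtttttcttct
Taf3, chr4:466846-466873: atgggaaataTATCGATAtttggggtat
ATPsynbeta, chr4:1038880-1038907: taccaatttcTATCGATAtgccaacatt
PMCA, chr4:358673-358700: gggaaatataTATCGATAtatcaaactt
zfh2, chr4:528929-528956: tattttggtaTATCGATAgaaattaacg
Zip102B, chr4:311632-311659: cactttctcaTATCGATAtgacgcaacc
CG11360, chr4:667930-667957: tgattctctcTATCGATAtgtcaaaaaa
toy, chr4:988318-988345: ttgtttagcaTATCGATAgagactctac
The elements at ey and MED26, a Mediator subunit gene, belong to the 2 regions found in both replicates. Those nearest to Crk, Hcf, a chromatin cofactor, Taf3, a general transcription factor subunit, PMCA, a plasma membrane calcium pump, and MED26 were the 5 at promoters, 2 to 76 bp from a start site. The 4 nearest to ATPsynbeta, zfh2, CG11360 and toy were in regions that overlap INE-1 remnants, by 260, 109, 203 and 4 bp. The summits of these 4 lay 7073, 27165, 3194 and 1355 bp from those start sites. The site named for ATPsynbeta lies inside CaMKII, and that named for CG11360 lies inside Slip1.

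The other 4 motifs had smaller pooled shares on chromosome 4 than on the other arms, though the interval of TGTTTAC held the share of the other arms. GAGAG, the letters bound by GAGA factor, was at 22 summits (7.46%, 4.73% to 11.1%), against 15.3% on the other arms and 9.07% of all chromosome 4 windows. AAAAAAAA was at 13 (4.41%, 2.37% to 7.42%), against 8.07% and 6.24%. CACACACA was at 3 (1.02%, 0.21% to 2.94%), against 3.59% and 0.558%. The forkhead letters TGTTTAC were at 5 (1.69%, 0.553% to 3.91%), against 2.53% and 2.15%. In replicate 1 the forkhead share was 2.12% on chromosome 4 and 2.23% on the other arms, and in replicate 3 it was 2.11% and 2.7%. For these 4 motifs the interval on chromosome 4 held the share of all its windows. A match gives the letters only and says nothing of which factor was bound.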

How the data were processed

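The authors deposited region lists in narrowPeak form for ChIP-seq of larvae with GFP-tagged Jim, on 2 assemblies, dm6 and dm3. Each replicate's list was made from its own alignment with a control, per the deposited text notes, and the pooled list used both alignments. No source used here names the aligner or the peak caller. The deposited signal value (column 7) is the caller's own and was used for ranks. The deposited q-value field (column 9) was treated as a score and not used. The number of reads is unknown.

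Chromosome 4 regions were taken from the dm6 lists and compared with 2L, 2R, 3L, 3R and X, whose coordinates fit the Release 6 sequence. Genes and transposable elements came from Ensembl release 115, and sequences from the RefSeq Release 6 genome. A replicate region counted where it held the pooled summit. The genes and regions named were the 12 strongest regions, those in the 1476 strongest of a replicate, the 6 genes with most summits and 4 gene lists, with other members of the 20 strongest and the sites of the replication-related element named after their values were seen. Of 49 list entries, 47 matched a symbol, and Thd1 and Caps were matched through older symbols, Caps to a gene already listed. Members, lists and motifs were chosen with earlier results of these data known. The interval code was checked on made-up positions. Alternatives changed the list, assembly, windows, overlap and ranks. Intervals came from scipy 1.17.1, tables from pandas 2.3.3 and numpy 2.4.6, and figures from matplotlib 3.10.9, run under Python 3.11.15.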

Additional observations from a re-analysis of the deposited data

How the results depend on the processing

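Of 30 alternatives for 7 results, 17 stayed within 1.5 times a count, within the interval of a share, or within 1 SD of the replicate values of the median rank, and 13 moved. The number of strong chromosome 4 regions, 0, ranged from 1 to 5 with 1 replicate left out, and was 9 with 2 times as many ranks and 27 with 5000. The median rank ranged from 55.15% to 55.74% of the list with a replicate left out, and was 48.56% without the regions at transposable elements, an alternative chosen after seeing the data. The promoter share was 18.64% with a window of 250 bp and 30.51% with 1000 bp. The share found in both replicates was 2.03% with the strongest 5000 regions of each and 4.75% with 10000. The share of genes with a region ranged from 50.0% to 73.75% with a replicate left out and was 88.75% over gene bodies. The wider windows and larger rank limits admit more by construction, and the narrower window and the shortened replicate lists admit fewer. The cause of the other shifts was not tested. No paired analysis was possible because there is 1 group. The unknown read number limits what an absent region means.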
